A study of Drosophila melanogaster with 9 samples.

Results

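The nuclear genes for the proteins of the mitochondrial ribosome were followed in heads of adult female Drosophila melanogaster from flies labelled homozygous for Ime4, heterozygous for Ime4, or control. Every gene was taken whose FlyBase symbol starts with mRpL (named for the large subunit) or mRpS (named for the small subunit). A read rule then kept those with 10 or more reads in at least 3 libraries. Of 73 such symbols in the BDGP6 annotation (Ensembl release 115), 71 had a row in the count files, and 68 of these passed the read rule, 45 mRpL and 23 mRpS genes out of 17558 gene rows in all. Their symbols were matched by FlyBase gene identifier, and mRpS5 and mRpS34 were not analysed here.

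Ime4, now called Mettl3, encodes the catalytic subunit of the enzyme complex that methylates adenosines in messenger RNA to N6-methyladenosine, and the study asked what its loss does in the fly. The 3 groups were flies labelled homozygous for Ime4 (Ime4hom), flies labelled heterozygous for Ime4 (Ime4het) and control flies labelled wt, with 3 libraries each. All were raised at 25 °C and 60% humidity and were 1 to 2 days old when polyadenylated RNA of their heads was sequenced. The labels name neither the allele nor the strain of the control flies, and do not give the number of heads per library or whether replicates were separate crosses, so the p-values below cover library-to-library spread, which may be technical.

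Mitochondria keep a small genome of their own, which encodes core subunits of the respiratory chain, and a ribosome of their own that translates it. Every protein of that ribosome is encoded in the nucleus, made in the cytosol and imported. Some of these proteins descend from bacterial ribosomal proteins and some were added to the ribosome during the evolution of mitochondria. Heads are rich in neurons, photoreceptors and muscle, cells that depend on mitochondrial respiration.

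The libraries held 3607203 to 4272550 reads in genes in Ime4hom, 3420013 to 3684110 in Ime4het and 2730289 to 3449227 in control. Reads that fell in no annotated gene made up 17.2 to 20% of reads in Ime4hom, 19.1 to 28.4% in Ime4het and 26.2 to 31.7% in control libraries. Mettl3 itself had 3, 3 and 2 reads in Ime4hom, 8, 13 and 16 in Ime4het and 17, 19 and 18 in control libraries, and fell in Ime4hom against control (log2 fold change -2.997 ± 0.45, adjusted p = 5.56e-04). Its change in Ime4het against control did not pass the threshold (-0.65 ± 0.35, adjusted p = 0.285). Markers of the head were present in all libraries: the summed level of 4 neuronal markers was 3510 to 4070 RPM (reads per 1000000 reads in genes) in Ime4hom, 3940 to 4340 in Ime4het and 5380 to 5680 in control, and that of 6 photoreceptor markers was 19600 to 20500, 22500 to 24900 and 26200 to 29500 in the same groups. Markers of 2 tissues outside the head stood out in single libraries. The summed level of 24 midgut proteases, of which 4 had no read, was 559 and 644 RPM in Ime4hom replicates 1 and 2, against 8.17 to 29.7 in the other libraries. The summed level of 11 ovary markers was 383 RPM in control replicate 3, against 0.279 to 3.66 elsewhere. The summed level of 4 muscle markers was 17600 to 26400 RPM in Ime4hom, 30600 to 32200 in Ime4het and 19400 to 21900 in control, with every Ime4het library above every other. The 5 glia markers summed to 5310 to 6430 RPM in Ime4hom, 4950 to 5590 in Ime4het and 4730 to 4970 in control, so that every Ime4hom library lay above every control. Fat body (6 markers) summed to 3300 to 8780, 6820 to 10300 and 4360 to 5950 RPM in Ime4hom, Ime4het and control, and testis (6 markers, 3 at 0 throughout) to 0.702 to 4.40 RPM over all libraries.

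The mRp genes had few reads and short exons. A member had a median of 30 reads per library, from an average of 7.67 for the lowest to 425 for the highest, and all 68 entered the test over 8972 genes. The median exon length was 786.5 bp (349 to 2078 bp), against 2216 bp for the genes tested that had a length. Because short genes collect fewer reads, levels of different genes are compared here as RPKM, that is CPM (reads per 1000000, with library sizes scaled by TMM) per kilobase of exon. On that scale the median member, at 10.9 RPKM, lay close to the median of all genes tested, at 11.5 RPKM, whereas the median level not corrected for length was 8.83 CPM for members and 26.1 CPM for all genes tested. Together the members took 0.0807 to 0.106% of the reads in genes in Ime4hom, 0.0857 to 0.0895% in Ime4het and 0.0787 to 0.0901% in control libraries.

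Most of these proteins are present in a single copy per ribosome, but their transcripts differed widely in level. By mean RPKM over the 9 libraries, mRpL22 stood first at 123 (95 to 197), followed by mRpL30 at 62.2 (41.9 to 88.5) and mRpS25 at 57.3 (35.3 to 75.3). mRpL22 lines the exit of the tunnel through which the new protein leaves, mRpL30 is a core protein of the large subunit, and mRpS25 is a mitochondria-specific protein of the small subunit. The ranges of mRpL30 and mRpS25 overlapped, while that of mRpL22 lay above both. mRpL24, at 44.7, and mRpL28, at 42.8, came next and also overlapped each other. The lowest were mRpL21 at 3.57 (1.84 to 4.78), mRpL51 at 3.42 (1.34 to 6.67) and mRpS18B at 3.11 (1.64 to 5.07), whose ranges all overlapped. mRpL22 alone made up 13.5% of the summed level of the members.

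**Figure D1:**
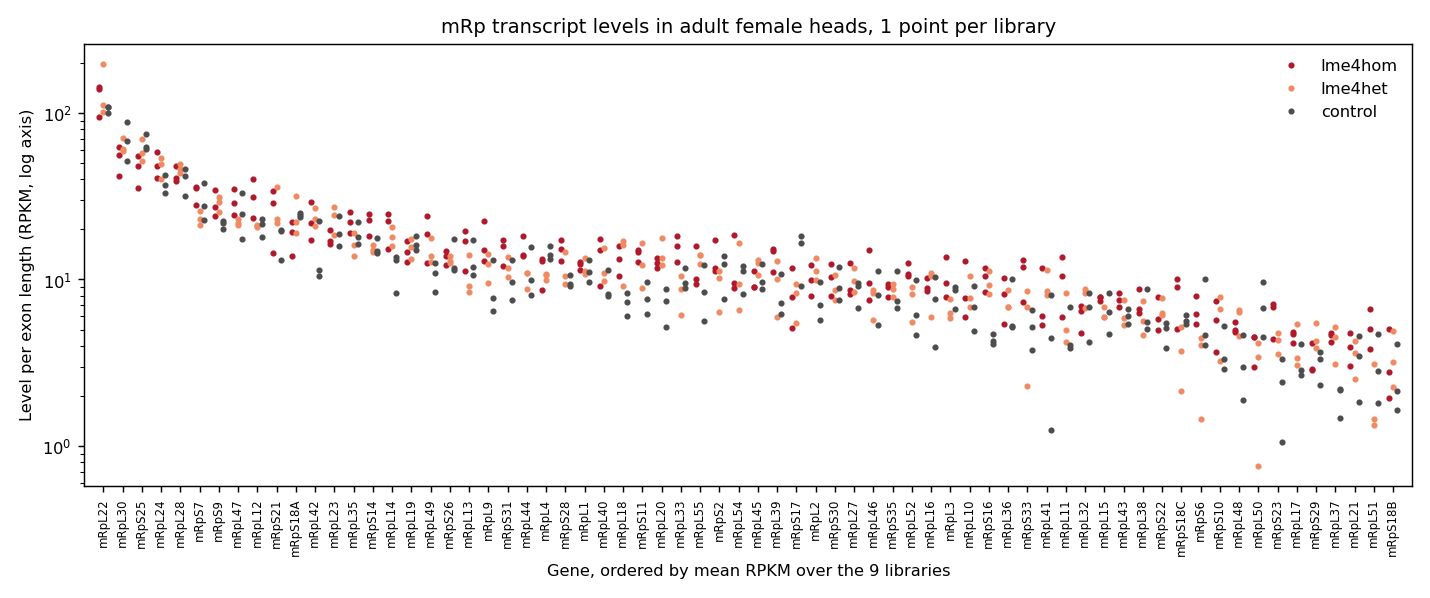
Level of each of the 68 mRp genes in RPKM (log axis), 1 point per library, with Ime4hom left, Ime4het in the middle and control right within each gene. Genes run from the highest mean (mRpL22, 123 RPKM) to the lowest (mRpS18B, 3.11 RPKM), and for most genes the points of the 3 groups overlap.

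Among the members with the most reads, mRpL22 (X, 16783933 to 16785092) had 136, 139 and 92.4 CPM in the Ime4hom libraries, 108, 191 and 98.4 CPM in the Ime4het libraries and 105, 97.6 and 105 CPM in the control libraries. Its highest library was Ime4het replicate 2, and the groups overlapped. The exit of the tunnel is also built by mRpL23, mRpL24 and mRpL47, with mRpL45 in mammals tethering the ribosome to the inner membrane. mRpL24 had 41.9, 51.1 and 35.5 CPM in Ime4hom heads, 35.1, 43.1 and 46.8 CPM in Ime4het heads and 37.2, 32.4 and 29 CPM in control heads, with overlapping groups (Ime4hom against control: log2 fold change 0.39 ± 0.17, adjusted p = 0.132). mRpL47 had 31.6, 26 and 22.1 CPM in Ime4hom, 19.6, 21 and 19.3 CPM in Ime4het and 22.3, 30.1 and 15.8 CPM in control libraries. The control libraries of mRpL47 spanned the widest range and included both a high and a low value. mRpL23 had 13.9, 11.5 and 11.9 CPM in the Ime4hom libraries, 12.9, 17.1 and 19 CPM in the Ime4het libraries and 16.7, 13.1 and 11.1 CPM in the control libraries. mRpL45 had 11.5, 14.3 and 11.4 CPM in Ime4hom heads, 16.5, 16 and 13.5 CPM in Ime4het heads and 15.6, 11.1 and 12.3 CPM in control heads, again with overlap. None of these 5 tunnel-exit genes passed the test in any comparison.

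The stalk of the large subunit recruits the translation factors. Its flexible part is made of mRpL12, which mRpL10 anchors, and mRpL11 forms its base. mRpL12 (3L, 8956791 to 8957584) had 23.2, 29.6 and 17.3 CPM in the Ime4hom libraries, 15.7, 15.4 and 15.3 CPM in the Ime4het libraries and 16, 13.3 and 17 CPM in the control libraries. All 3 Ime4hom libraries lay above all 6 others, but the difference from control did not pass the threshold (log2 fold change 0.59 ± 0.21, adjusted p = 0.0632), nor did that from Ime4het (log2 fold change 0.59 ± 0.21, adjusted p = 0.122). mRpL11 had 7.67, 10.1 and 4.38 CPM in Ime4hom, 3.65, 3.08 and 6.11 CPM in Ime4het and 2.97, 2.84 and 4.99 CPM in control libraries; Ime4hom replicates 1 and 2 were the highest, replicate 3 fell among the controls, and the log2 fold change against control was 1.01 ± 0.39 (adjusted p = 0.0870). mRpL10 had 6.95, 11.7 and 5.35 CPM in Ime4hom heads, 6.17, 7.0 and 9.48 CPM in Ime4het heads and 4.46, 8.23 and 6.16 CPM in control heads, with overlap of all groups.

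The fly has 3 genes related to the bacterial protein S18. Per exon length their levels differed, at 22.4 RPKM for mRpS18A, 5.82 RPKM for mRpS18C and 3.11 RPKM for mRpS18B. In mammalian structures the counterpart of mRpS18A sits in the large subunit, despite its name. mRpS18A had 12.9, 11.2 and 8.03 CPM in the Ime4hom libraries, 18.5, 12.9 and 11 CPM in the Ime4het libraries and 14.5, 14.2 and 13.8 CPM in the control libraries; the Ime4hom libraries lay below the controls (log2 fold change -0.40 ± 0.24, adjusted p = 0.273). mRpS18C had 4.79, 5.31 and 2.68 CPM in Ime4hom heads, 1.12, 1.96 and 2.75 CPM in Ime4het heads and 2.97, 2.84 and 3.23 CPM in control heads, with the Ime4het libraries below all controls. Ime4hom replicates 1 and 2 were the highest libraries, and no comparison passed the threshold (Ime4hom against Ime4het: log2 fold change 1.12 ± 0.42, adjusted p = 0.140). mRpS18C had 20, 19 and 11 reads in Ime4hom, 4, 7 and 9 in Ime4het and 8, 10 and 11 in control libraries. It met the read rule only with the Ime4hom libraries counted, where it is high, so its values support no difference. mRpS18B had 2.4, 1.68 and 4.38 CPM in Ime4hom, 4.21, 1.96 and 2.75 CPM in Ime4het and 1.86, 1.42 and 3.52 CPM in control libraries, and its groups overlapped.

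mRpS29 is a GTP-binding protein of the small subunit, known in mammals also as DAP3. It had 5.99, 4.19 and 4.14 CPM in the Ime4hom libraries, 7.85, 5.6 and 6.11 CPM in the Ime4het libraries and 3.34, 4.82 and 5.28 CPM in the control libraries; the Ime4het libraries lay above the controls, without passing the threshold (log2 fold change 0.52 ± 0.31, adjusted p = 0.338). mRpS30, whose mammalian counterpart sits in the large subunit, had 25.6, 21.5 and 16.5 CPM in Ime4hom heads, 22.2, 15.7 and 18 CPM in Ime4het heads and 15.6, 24.7 and 18.5 CPM in control heads, and its groups overlapped. mRpS30 has the longest exons of the members, 2078 bp.

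When Ime4hom heads were set against control heads, 6 of the 68 mRp genes rose and none fell (edgeR's quasi-likelihood test, Benjamini-Hochberg adjusted p under 0.05 over 8972 genes). Across all genes tested 19.7% changed, 10.9% higher and 8.77% lower, so that the 8.82% of members that rose was close to the background. At an unadjusted p under 0.05, 19 members were higher and 2 lower, and the background was 18.1% and 15.1%. DESeq2 called 1 member higher and 0 lower, where it called 9.56% of all genes higher and 8.26% lower, and limma-voom called 4 and 0, with 9.93% and 8.73% of all genes. The 6 genes were mRpL37, mRpS16, mRpS23, mRpL14, mRpS11 and mRpL9. In bulk heads, a change in the number of cells of a type and a change of the RNA per cell cannot be told apart.

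mRpL37 (3R, 10782563 to 10784092), a mitochondria-specific protein of the large subunit, had 5.75, 6.43 and 6.33 CPM in the Ime4hom libraries, 7.01, 4.2 and 6.11 CPM in the Ime4het libraries and 2.97, 1.99 and 2.93 CPM in the control libraries. Every Ime4hom and every Ime4het library lay above every control library. It rose in Ime4hom (log2 fold change 1.23 ± 0.33, adjusted p = 0.0182) and in Ime4het (log2 fold change 1.14 ± 0.34, adjusted p = 0.0497), the one member called in both comparisons, which share the control libraries. mRpS16 (2R, 14172986 to 14173596), a small subunit protein of bacterial descent, had 5.75, 6.43 and 4.62 CPM in Ime4hom heads, 5.05, 4.48 and 6.11 CPM in Ime4het heads and 2.23, 2.55 and 2.35 CPM in control heads. The control libraries were again the 3 lowest. The gene rose in Ime4hom (log2 fold change 1.21 ± 0.32, adjusted p = 0.0181), while Ime4het against control missed the threshold (log2 fold change 1.11 ± 0.33, adjusted p = 0.0510). In control libraries mRpL37 had 8, 7 and 10 reads and mRpS16 had 6, 9 and 8. Both met the read rule of 3 libraries only through the groups in which they were high.

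mRpS23 (2L, 13834250 to 13835072), a mitochondria-specific protein of the small subunit, had 3.11, 5.03 and 4.87 CPM in the Ime4hom libraries, 2.52, 3.36 and 3.06 CPM in the Ime4het libraries and 0.743, 1.7 and 2.35 CPM in the control libraries. It had the fewest reads of the 6, with 13, 18 and 20 reads in Ime4hom, 9, 12 and 10 in Ime4het and 2, 6 and 8 in control libraries. No control library reached any library of the other groups, and the gene rose in Ime4hom (log2 fold change 1.37 ± 0.43, adjusted p = 0.0369). Outside Ime4hom only Ime4het replicates 2 and 3 had 10 or more reads. mRpS23 is therefore a member through the group in which it is high, and its rise carries that limit. mRpL14 (X, 2343997 to 2344649), which lies at the interface between the subunits, had 14.6, 16.2 and 9.97 CPM in Ime4hom heads, 13.5, 11.8 and 10.4 CPM in Ime4het heads and 8.92, 5.39 and 8.51 CPM in control heads. Both mutant groups lay above control; Ime4hom passed the test (log2 fold change 0.84 ± 0.26, adjusted p = 0.0352) and Ime4het did not (log2 fold change 0.66 ± 0.27, adjusted p = 0.151).

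mRpS11 (3R, 17072732 to 17073795), a protein of the platform of the small subunit, had 11, 10.6 and 9.24 CPM in Ime4hom, 12.1, 6.44 and 8.87 CPM in Ime4het and 7.06, 4.54 and 5.57 CPM in control libraries. Its Ime4hom libraries all lay above control (log2 fold change 0.86 ± 0.28, adjusted p = 0.0439), and Ime4het replicate 2 fell within the control range. mRpL9 (3R, 15330738 to 15331588), a large subunit protein of bacterial descent, had 12, 17.9 and 10.2 CPM in the Ime4hom libraries, 9.82, 7.56 and 11.3 CPM in the Ime4het libraries and 10.4, 5.11 and 6.16 CPM in the control libraries. Ime4hom replicate 3 lay just below control replicate 1, so the groups overlapped although the test was passed (log2 fold change 0.91 ± 0.30, adjusted p = 0.0490).

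**Figure D2:**
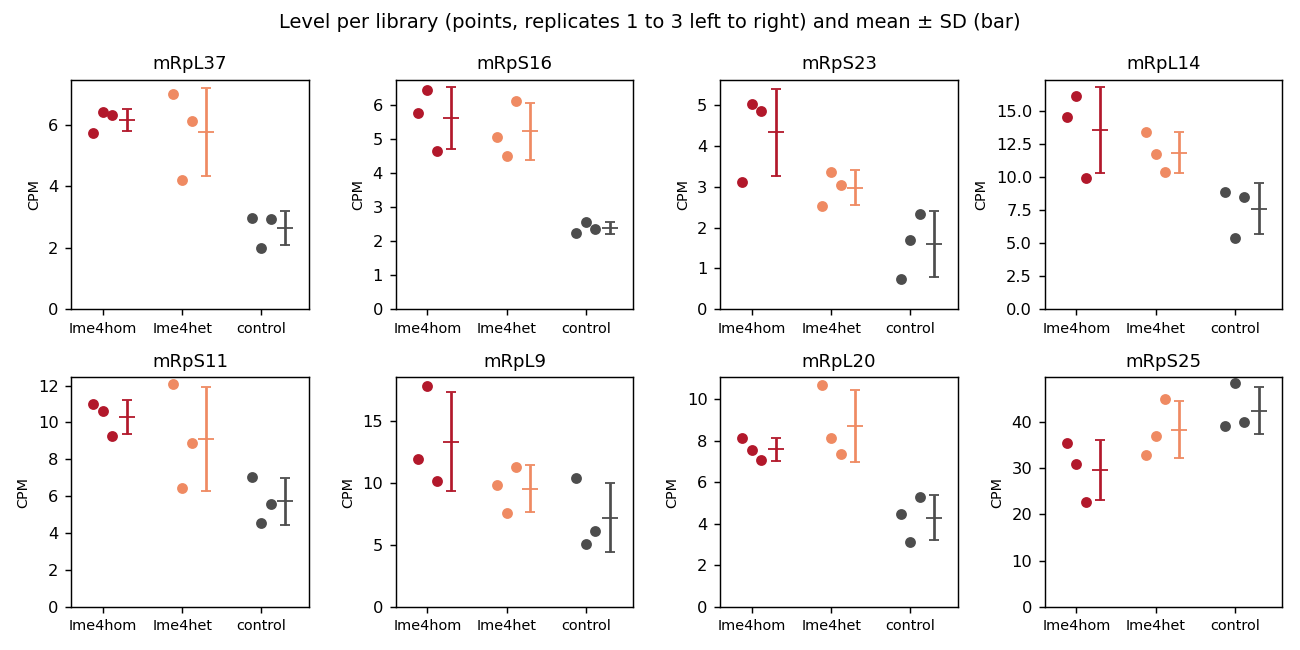
Level in CPM (axes from 0) of the 7 mRp genes called in any comparison and of mRpS25, 1 point per library with replicates 1 to 3 from left to right; the bar beside the points is the mean ± SD of the 3 libraries. For mRpL37, mRpS16, mRpS23, mRpL14 and mRpL20 no control library reaches the Ime4hom or Ime4het libraries, whereas for mRpS25 the Ime4hom libraries lie below the controls.

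The calls depended on single libraries. With Ime4hom replicate 2 or control replicate 2 left out, 0 of the 68 members were called, where 7.84% and 6.96% of all genes rose and 6.44% and 5.35% fell, and with Ime4hom replicate 3 left out 17 rose, where 14.5% of all genes tested rose, among them mRpL11, mRpL12, mRpL18, mRpL24, mRpL49 and mRpS9. Leaving out Ime4hom replicate 1 gave 2 higher and 1 lower (all genes 7.14% and 6.53%), Ime4het replicate 2 gave 3 higher (all genes 9.73%), and Ime4het replicate 3 gave 2 (all genes 9.20%). mRpL37 was called most often, in 16 of 19 alternative analyses, a tally that leaves out the threshold of 0.01 and the fit without control replicate 3 and Ime4hom replicates 1 and 2, in both of which no member rose. In the same tally mRpS16 was called in 11, mRpS23 and mRpS11 in 8 each, mRpL14 in 7 and mRpL9 in 4. The alternatives reuse the same libraries, so the tally does not count independent repeats. Ime4hom replicates 1 and 2, the libraries with the midgut transcripts, also had the highest summed member level, at 991 and 1067 CPM, against 795 CPM in Ime4hom replicate 3. With both left out, no member rose, mRpS25 fell, and the median log2 fold change over the members was 0.11, where 7.10% of all genes tested rose and 6.02% fell. Without control replicate 3, the library with the ovary transcripts, 4 members rose, 0 fell and the median was 0.44, where 8.08% of all genes tested rose and 6.81% fell. The sums of the neuronal, photoreceptor, muscle, glia and fat body markers and the share of reads in no gene also differed between groups, as given above, and their part in these results was not tested.

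Counting called and uncalled members together, most leaned the same way. Of the 68, 58 (85.3%) had a positive log2 fold change, against 52.0% of all genes tested. The median was 0.35 (quartiles 0.14 and 0.64, range -0.82 to 1.37), against 0.02 over all genes tested. The Ime4hom libraries all lay above the control libraries for 19 members (27.9%; background 17.9%) and all below for 3 (4.41%; background 15.9%). The 3 below were mRpL4, mRpS18A and mRpS25. The median SE of a member's log2 fold change was 0.28, and the smallest called change was 0.84, so no single member with a change of the size of the median was called at this depth.

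By symbol, the median log2 fold change was 0.34 over the 45 mRpL genes (38 positive, 3 called) and 0.36 over the 23 mRpS genes (20 positive, 3 called). The called shares were 6.67% and 13.0%, beside 10.9% of all genes tested called higher. Positive values made up 84.4% and 87.0%, beside 52.0% of all genes tested. The median was 0.31 over the 42 members of bacterial families and 0.44 over the 25 mitochondria-specific ones. Of these, 4 and 2 were called (9.52% and 8%), also near the background of 10.9%. mRpL55 was left unclassed. The 34 members with the lower mean CPM had a median of 0.50, and the 34 with the higher one 0.25. None of these differences between classes was tested.

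The members with a negative value included some of the most abundant. mRpS25 (X, 14582136 to 14582982) had 35.5, 30.7 and 22.6 CPM in the Ime4hom libraries, 32.8, 37 and 44.9 CPM in the Ime4het libraries and 39, 48.2 and 39.9 CPM in the control libraries. The Ime4hom libraries were below all controls, but the difference missed the threshold (log2 fold change -0.52 ± 0.18, adjusted p = 0.0618). mRpL30 had 43.6, 39.1 and 29.2 CPM in Ime4hom heads, 41.2, 42.6 and 49.2 CPM in Ime4het heads and 36, 61.6 and 46.9 CPM in control heads, with overlapping groups (log2 fold change -0.38 ± 0.19, adjusted p = 0.194). The 2 lowest values were those of mRpL50, a mitochondria-specific large subunit protein (-0.82 ± 0.44), and mRpS17, a small subunit protein that binds ribosomal RNA directly (-0.79 ± 0.34); neither passed the test (adjusted p = 0.217 and 0.119).

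In Ime4het heads against control heads, 2 of the 68 members rose and none fell, where 9.32% of all genes tested changed, 5.55% higher and 3.77% lower; at an unadjusted p under 0.05 there were 10 higher and 2 lower (background 12.7% and 10.4%). DESeq2, which called 5.46% of all genes higher and 3.60% lower, and limma-voom, which called 4.86% and 3.32%, called no member. Muscle markers were above control in every Ime4het library, and their part in these values was not tested. mRpL20 (3L, 13017149 to 13017867), whose bacterial counterpart acts early in assembly of the large subunit, had 8.14, 7.55 and 7.05 CPM in the Ime4hom libraries, 10.7, 8.12 and 7.34 CPM in the Ime4het libraries and 4.46, 3.12 and 5.28 CPM in the control libraries. Both mutant groups lay above control; the gene rose in Ime4het (log2 fold change 1.02 ± 0.28, adjusted p = 0.0374) and missed the threshold in Ime4hom (log2 fold change 0.82 ± 0.28, adjusted p = 0.0566). The second was mRpL37, given above.

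Without Ime4hom replicate 1, Ime4het replicate 3 or control replicate 2, 0 members were called in Ime4het against control (all genes 5.05%, 2.39% and 2.72% higher), and without Ime4hom replicate 3 there were 4 (all genes 8.89% higher). Leaving out any other library gave 1 call, with 2.62 to 5.81% of all genes higher. Of the same 19 alternative analyses, mRpL20 was called in 9 and mRpL37 in 3. Over all 68, 45 (66.2%) had a positive value, against 48.7% of all genes, and the median was 0.22 (range -1.35 to 1.14), against -0.01. The median was 0.23 over the mRpL genes (31 of 45 positive) and 0.16 over the mRpS genes (14 of 23). The Ime4het libraries all lay above control for 13 members (19.1%; background 16.1%) and all below for 3 (4.41%; background 15.6%), namely mRpL4, mRpL50 and mRpS18C. mRpL50 had 3.35, 3.35 and 2.19 CPM in the Ime4hom libraries, 2.52, 0.56 and 3.06 CPM in the Ime4het libraries and 3.34, 7.1 and 4.99 CPM in the control libraries. Its lowest library was Ime4het replicate 2, with the group below control (log2 fold change -1.35 ± 0.48, adjusted p = 0.100).

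Between Ime4hom and Ime4het heads no mRp gene was called in either direction, where 5.48% of all genes tested were called, 3.38% higher and 2.11% lower. At an unadjusted p under 0.05 there were 8 members, all higher in Ime4hom, with a background of 11.3% higher and 9.18% lower, and neither DESeq2 (all genes 3.70% and 2.82%) nor limma-voom (2.82% and 2.03%) called any. The median log2 fold change was 0.15, against 0.02 over all genes, and 46 (67.6%) were positive, against 52.6%. Among the 8 were mRpL12, with the values given above, and mRpL51, a mitochondria-specific protein that had 10, 15 and 13 reads in Ime4hom, 7, 3 and 3 in Ime4het and 8, 4 and 6 in control libraries (log2 fold change 1.34 ± 0.50, adjusted p = 0.141 for Ime4hom against Ime4het). mRpL51 reached 10 reads only in the Ime4hom libraries, so it is a member through the group in which it is high, and its value here supports no difference. mRpS18C, also among the 8, met the read rule only with the Ime4hom libraries counted and carries the same limit. Without Ime4hom replicate 3, mRpL12 and mRpS7 were called higher (all genes 6.84%), and without Ime4hom replicates 1 and 2, mRpS25 was called lower (all genes 3.99%).

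**Figure D3:**
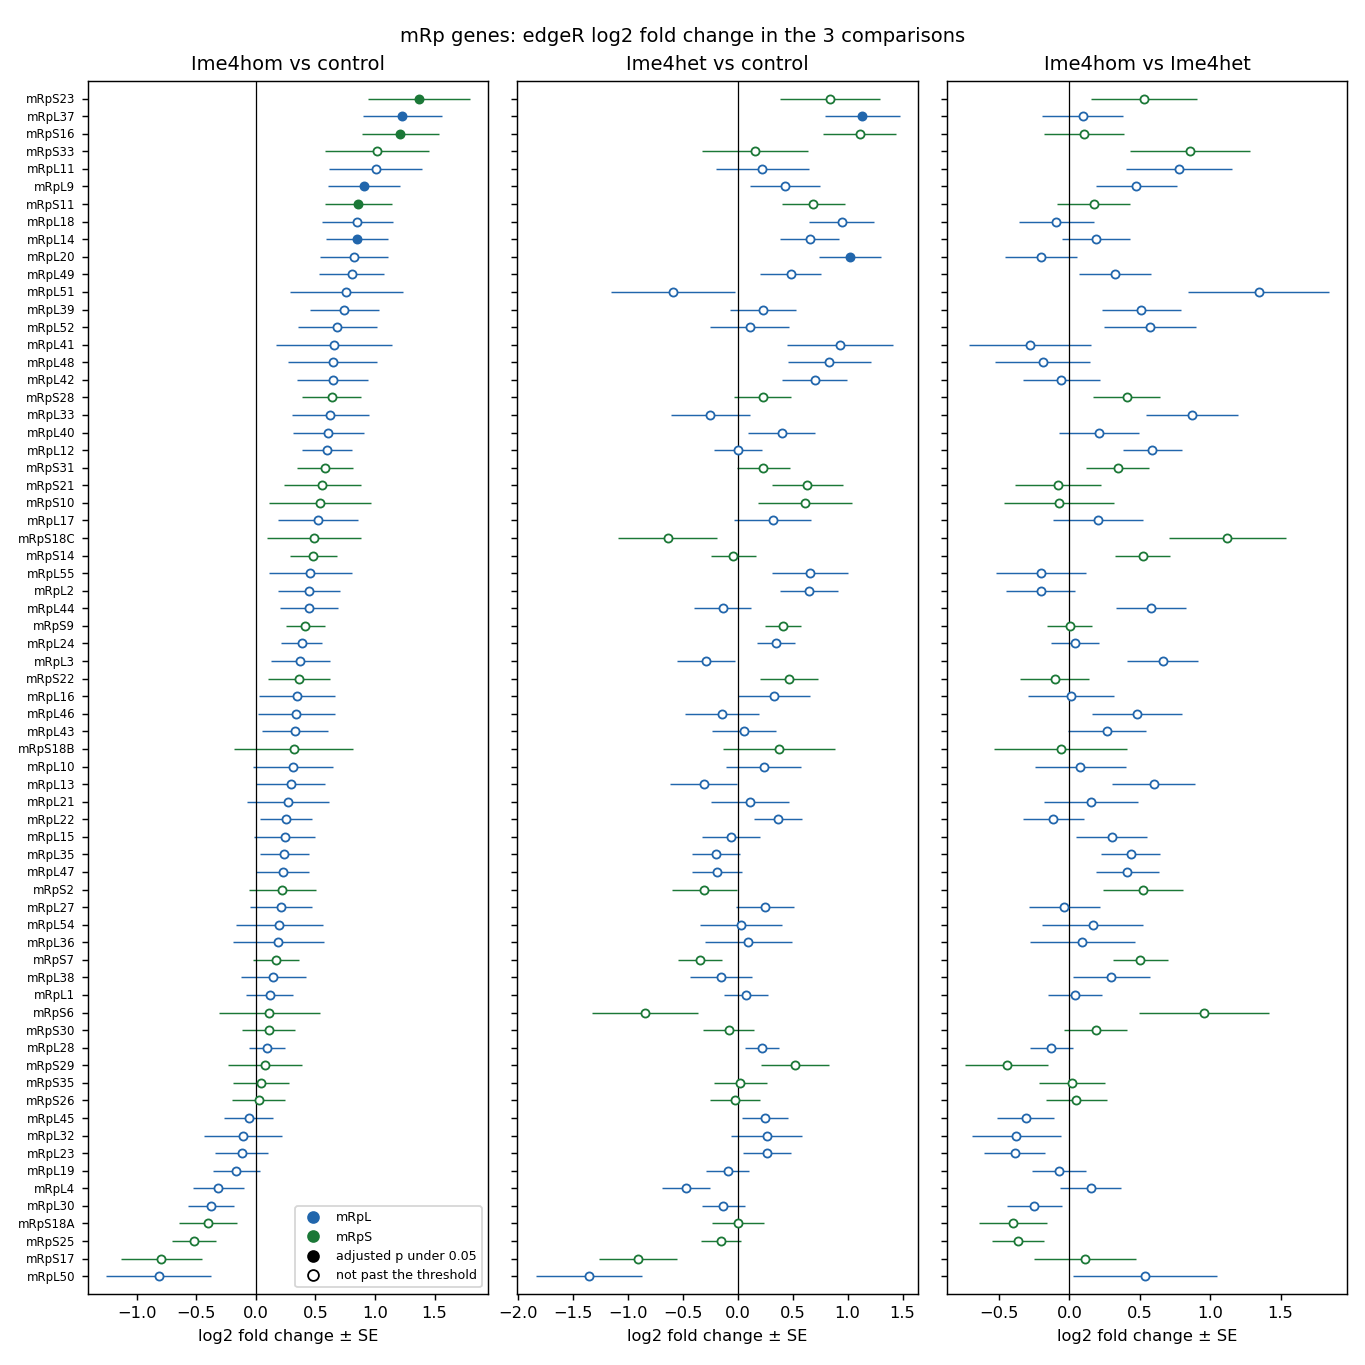
Log2 fold change ± SE of the 68 mRp genes in the 3 comparisons (edgeR), ordered by Ime4hom against control, with filled points for an adjusted p under 0.05. Most points lie right of 0 in Ime4hom against control, with 6 filled; 2 are filled in Ime4het against control and 0 in Ime4hom against Ime4het.

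Summed over the members, the level averaged 951 ± 140 CPM in Ime4hom, 894 ± 31.1 CPM in Ime4het and 804 ± 35.4 CPM in control libraries (SD, n = 3 each). The single sums were 991, 1067 and 795 CPM in Ime4hom, 861, 923 and 897 CPM in Ime4het and 800, 770 and 841 CPM in control libraries. The Ime4het libraries lay above all controls, while Ime4hom replicate 3 lay among the controls. The separation of Ime4het from control depended on mRpL22, which was highest in Ime4het replicate 2. Without mRpL22 the sums were 753, 732 and 799 CPM in Ime4het and 694, 673 and 735 CPM in control libraries, which overlap. The mRpL part averaged 669 ± 107, 634 ± 47.4 and 555 ± 25.3 CPM in Ime4hom, Ime4het and control, and the mRpS part 282 ± 34.8, 260 ± 18.5 and 248 ± 15.4 CPM (SD, n = 3 each).

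The members' levels were also set beside the trend of all tested genes with exon length. Whether length had a part in their values was not tested. When each gene's log2 level in a library was taken relative to its own mean over the 9 libraries, genes of different exon length deviated differently in each library, and the mRp genes are short. Their median deviation was 0.19 and 0.37 in Ime4hom replicates 1 and 2 and -0.04 in replicate 3, and the trend of all tested genes at the same lengths was 0.17, 0.28 and -0.03. In Ime4het libraries the median deviation was 0.02, -0.08 and 0.07 (trend 0.01, 0.02 and 0.07). In control libraries it was -0.17, -0.28 and -0.06, with a trend of -0.14, -0.14 and -0.05. With the trend taken out, the medians were 0.04, 0.09 and -0.01 in Ime4hom, 0.01, -0.10 and -0.01 in Ime4het and -0.02, -0.16 and -0.02 in control libraries. Control replicate 2 was the library furthest from 0 after this step.

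**Figure D4:**
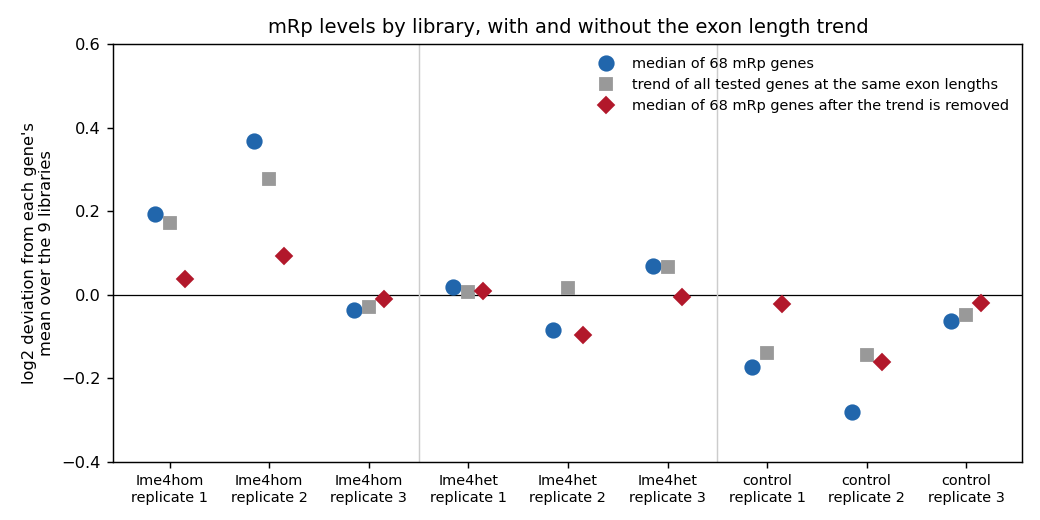
Median log2 deviation of the 68 mRp genes from each gene's mean over the 9 libraries (circles), the trend of all tested genes at the same exon lengths (squares) and the median after removal of that trend (diamonds), per library. Circles run from 0.37 in Ime4hom replicate 2 to -0.28 in control replicate 2, and diamonds from 0.09 to -0.16.

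When the length trend was entered into the fit as an offset, the calls changed. In Ime4hom against control, where 9.67% of all genes tested rose and 8.48% fell, 1 member rose, mRpL37 (1.09, adjusted p = 0.0319), and 3 fell: mRpS25 (-0.82, adjusted p = 0.00381), mRpL30 (-0.66, adjusted p = 0.0215) and mRpS18A (-0.72, adjusted p = 0.0478). The median over the members was 0.14, with 44 (64.7%) positive, against 50.7% of all genes. mRpS16 then had a log2 fold change of 0.88 (adjusted p = 0.0596). In Ime4het against control the median was 0.08 with 36 positive and no call in either direction (background 5.85% higher and 4.22% lower), and in Ime4hom against Ime4het it was 0.04 with 37 positive and no call (background 3.59% and 2.66%). Without the offset mRpS25, mRpL30 and mRpS18A had negative values as well, but did not pass the threshold.

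The genes for proteins of the cytosolic ribosome, which translates all nuclear messages, gave other counts. Of 88 genes 79 were tested. In Ime4hom against control 65 rose (82.3%) and 0 fell, where 10.9% of all genes rose and 8.77% fell. At an unadjusted p under 0.05, 70 were higher and 0 lower (all genes 18.1% and 15.1%), and the median log2 fold change was 0.65. RpS27, of the small cytosolic subunit, had 425, 427 and 310 CPM in Ime4hom heads, 266, 239 and 313 CPM in Ime4het heads and 200, 163 and 178 CPM in control heads (log2 fold change 1.10 ± 0.15, adjusted p = 0.00024). In Ime4het against control 49 of the 79 rose (62.0%, median 0.54), where 5.55% of all genes rose. Between Ime4hom and Ime4het 0 were called (all genes 3.38% higher and 2.11% lower), and 5 were higher at an unadjusted p under 0.05 (all genes 11.3%). With the length offset 45 passed the test as higher in Ime4hom against control, where 9.67% of all genes did. The median was then 0.41, beside 0.14 for the mRp genes. Their summed level was 31237 ± 5377 CPM in Ime4hom, 29433 ± 1771 CPM in Ime4het and 20274 ± 1790 CPM in control libraries (SD, n = 3 each). The members of both lists are not replicates, so the difference between the lists was not tested.

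**Figure D5:**
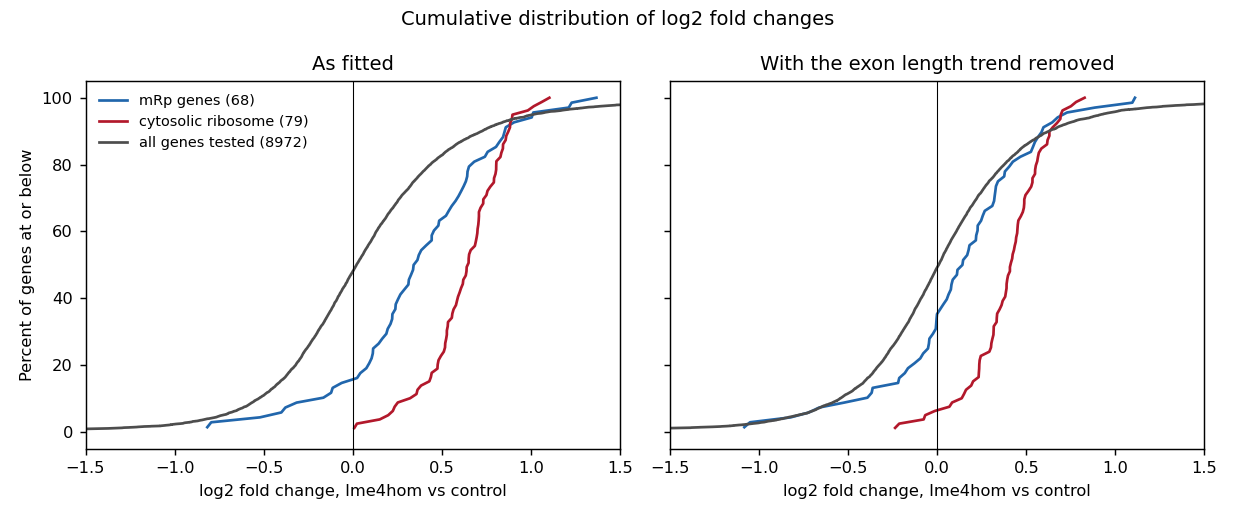
Cumulative percent of genes at or below each log2 fold change in Ime4hom against control, for 68 mRp genes, 79 cytosolic ribosomal protein genes and all 8972 genes tested, as fitted (left) and with the exon length trend removed (right). The median of the mRp genes is 0.35 on the left and 0.14 on the right, and that of the cytosolic ribosome 0.65 and 0.41.

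The nuclear genes for the respiratory chain encode the partners of the proteins that the mitochondrial ribosome makes. Of 89 such genes 67 were tested. In Ime4hom against control 16 rose and 1 fell (23.9% and 1.49%, median 0.38), where 10.9% of all genes rose and 8.77% fell. In Ime4het against control 6 rose and 1 fell (8.96% and 1.49%, median 0.29), where 5.55% of all genes rose and 3.77% fell. Between Ime4hom and Ime4het 0 were called (all genes 3.38% higher and 2.11% lower), and 2 were higher at an unadjusted p under 0.05 (all genes 11.3%). ATPsynD, a subunit of the ATP synthase, had 246, 281 and 217 CPM in Ime4hom heads, 211, 220 and 232 CPM in Ime4het heads and 165, 135 and 153 CPM in control heads and rose in both (Ime4hom: log2 fold change 0.71 ± 0.12, adjusted p = 0.00154; Ime4het: log2 fold change 0.55 ± 0.12, adjusted p = 0.0144). cype, a subunit of cytochrome c oxidase, rose in Ime4hom (log2 fold change 0.87 ± 0.15, adjusted p = 0.00144). The genes that fell were ND-ASHI of complex I in Ime4hom (log2 fold change -0.57 ± 0.16, adjusted p = 0.0252) and ox of complex III in Ime4het (log2 fold change -0.56 ± 0.16, adjusted p = 0.0389). With the length offset, 4 rose and 4 fell in Ime4hom against control, with a median of 0.11, where 9.67% of all genes rose and 8.48% fell.

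Genes for the other steps of mitochondrial gene expression were called at shares near the background of 10.9% higher and 8.77% lower in Ime4hom against control, or were not called. Of 12 translation factors tested, mRF1, a release factor that ends translation, fell in Ime4hom against control; it had 3.83, 3.91 and 3.65 CPM in the Ime4hom libraries, 7.29, 6.44 and 3.06 CPM in the Ime4het libraries and 10.4, 7.38 and 9.68 CPM in the control libraries (log2 fold change -1.25 ± 0.32, adjusted p = 0.0138). All Ime4hom libraries lay below all controls. No other factor was called in any comparison, and the median log2 fold change was 0.04, -0.002 and -0.01 in Ime4hom against control, Ime4het against control and Ime4hom against Ime4het. At an unadjusted p under 0.05, 2 factors were lower in each of the comparisons with control, where 15.1% (Ime4hom) and 10.4% (Ime4het) of all genes were lower. Of the 15 transfer RNA synthetases, 0 were called in any comparison. At an unadjusted p under 0.05, 1 was higher in Ime4hom against control (all genes 18.1%). In Ime4het against control 1 was higher and 2 were lower (all genes 12.7% and 10.4%). Between Ime4hom and Ime4het 0 differed (all genes 11.3% higher and 9.18% lower).

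Of 11 tested genes for mitochondrial transcription and RNA processing, 1 rose in both comparisons with control. This was scu, a dehydrogenase that is also part of mitochondrial RNase P, with 49.6, 57 and 44.8 CPM in Ime4hom, 44, 42.6 and 50.1 CPM in Ime4het and 24.9, 26.4 and 30.5 CPM in control libraries (Ime4hom: log2 fold change 0.88 ± 0.15, adjusted p = 0.00114; Ime4het: log2 fold change 0.74 ± 0.15, adjusted p = 0.00765). The control libraries were the 3 lowest. Neither of the 2 tested genes for mitochondrial DNA replication was called. mtSSB, the single-stranded DNA binding protein, came nearest, in Ime4hom against Ime4het (1.27 ± 0.37, adjusted p = 0.0598). It was the one value of that list with an unadjusted p under 0.05 (all genes 11.3% higher and 9.18% lower). Lastly, tko and bonsai encode proteins of the small mitochondrial subunit under names that the symbol rule does not catch. tko, the fly's S12 and known for bang-sensitive mutants, had 7.67, 10.6 and 5.84 CPM in the Ime4hom libraries, 6.45, 6.72 and 7.95 CPM in the Ime4het libraries and 4.83, 3.97 and 7.33 CPM in the control libraries (log2 fold change 0.56 ± 0.31, adjusted p = 0.221 for Ime4hom against control). bonsai, the fly's S15, had 8.86, 12.3 and 6.57 CPM in Ime4hom heads, 12.1, 11.8 and 9.17 CPM in Ime4het heads and 7.8, 12.5 and 9.39 CPM in control heads (log2 fold change -0.12 ± 0.27, adjusted p = 0.796). Neither was called in any comparison.

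Several members sat near the read rule. Just inside it were mRpL51, with 10 or more reads in 3 libraries, and mRpS18B, with 4. mRpL51 was the one member that reached 10 reads only in the libraries of 1 group, Ime4hom, so its place among the members depended on that group. Among the called members, mRpS23 met the rule only with the Ime4hom libraries counted, as did mRpS18C, which was not called. Likewise, mRpL37 and mRpS16 met it only through the Ime4hom and Ime4het libraries. Just outside were mRpS24, with 8, 14 and 7 reads in Ime4hom, 13, 6 and 4 in Ime4het and 6, 4 and 2 in control libraries, and mRpL34, with 8, 14 and 5, 8, 1 and 4, and 7, 6 and 5 reads in the same groups. mRpL53 had 0 reads in every library, and all of its exon bases are shared with other annotated genes, so its counts do not measure it. Of the 68 members, 49 had 10 or more reads in all 9 libraries.

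Exon overlap with neighbouring genes was small for most members. No exon base was shared with another gene in 29 members, and under 10% in 60. At 20% or more were mRpL13 (35.2%, same strand as CG10602), mRpS21 (48.0%), mRpS14 (35.8%), mRpS9 (25.1%, opposite ArgRS-m), mRpL17 (23.6%) and mRpL48 (20.8%). Their values are less certain, and none of them was called in the reported fit. Without Ime4hom replicate 3, mRpS9, mRpS14 and mRpS21 were called higher in Ime4hom against control, where 14.5% of all genes rose. Over the 29 members without overlap the median log2 fold change in Ime4hom against control was 0.27. Of these, 25 were positive (86.2%, all genes 52.0%) and 3 were called higher (10.3%, all genes 10.9%).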

How the data were processed

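Polyadenylated RNA of female heads was sequenced with a directional kit in 9 libraries, 3 per group. The authors deposited read counts per gene, raw and not normalized; CASAVA 1.8.4, STAR 2.4.0h, HTSeq 0.6.1, DESeq2 1.6.3 and the build BDGP6 are named per the submitters' processing notes, and whether counting used strand is not given in the sources used here, so reads from overlapping antisense genes cannot be told apart. The 5 summary lines of each file were kept out of library sizes and tests. Libraries were grouped by their labels. Genes were filtered with filterByExpr (minimum count 10, minimum total 15), scaled with TMM and tested with edgeR 4.0.16 (R 4.3.3) by the quasi-likelihood test over all 9 libraries, with Benjamini-Hochberg adjustment over the 8972 genes kept. The scripts were tested on simulated data. RPKM was CPM over the annotated exon length in kilobases. Symbols came from the annotation, which held 17252 of the 17558 gene identifiers; PheRS-m, bsf, Cyt-c-p, para, wupA and nos of the lists were not matched. The length trend was a loess fit (span 0.5) of log2 CPM deviations (prior count 2) on log exon length. Alternatives used other scalings and filters, DESeq2 1.42.0, limma-voom (limma 3.58.1), a threshold of 0.01, the 2 groups alone, the replicate block, the length offset and left-out libraries. The members, the gene lists and the rule for named genes (all members called, the 3 highest and lowest by RPKM, the S18 paralogs, stalk, tunnel exit, mRpS29, mRpS30, genes at the read rule, and up to 4 called genes of each other list) were chosen with earlier results of these data known. Replicate numbers were not used to pair the libraries in the reported fit.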

Additional observations from a re-analysis of the deposited data

How the results depend on the processing

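The median log2 fold change of the mRp genes in both comparisons with control was positive under every alternative run; without Ime4hom replicates 1 and 2 it was -0.04 in Ime4hom against Ime4het (-0.01 without control replicate 3 too), and the lone Ime4hom library was then assumed to vary like the other groups. For Ime4hom against control, where 6 rose, DESeq2 called 1 (all genes 9.56% higher) and a threshold of 0.01 called 0 (all genes 5.51%). A fit of the 2 groups alone called 2 (all genes 7.90%) and the length offset 1 (all genes 9.67%). Without Ime4hom replicates 1 and 2 the median was 0.11. It was 0.15 when control replicate 3 was left out too, an alternative chosen after seeing the data. Against the count of 0 that fell, no filter gave 1 (all genes 6.19% lower) and the length offset 3 (all genes 8.48%). With single libraries left out, the counts ran from 0 to 17 higher and 0 to 1 lower and the median from 0.24 to 0.46. Of all genes, 6.96 to 14.5% were then higher and 5.35 to 12.6% lower. For Ime4het against control, where 2 rose, upper-quartile scaling, no filter and a filter of 10 reads in 3 libraries each gave 1. All genes were higher at 4.89%, 4.22% and 5.48% in these fits. DESeq2 (all genes 5.46%), limma-voom (4.86%), the threshold of 0.01 (2.10%), the replicate block (5.14%) and the length offset (5.85%) gave 0. Leaving out single libraries gave 0 to 4 higher, 0 lower and a median of 0.09 to 0.28. Of all genes, 2.39 to 8.89% were then higher and 1.54 to 6.88% lower. For Ime4hom against Ime4het, leaving out single libraries gave 0 to 2 higher, 0 lower and a median of 0.05 to 0.29. Of all genes, 0.830 to 6.84% were then higher and 0.601 to 5.17% lower. The cause of these changes was not tested. With the replicate number as a block, 5 members rose and 0 fell in Ime4hom against control (all genes 10.4% and 8.11%). In the other comparisons 0 were called (all genes 5.14% and 3.52% in Ime4het against control, 3.28% and 1.75% in Ime4hom against Ime4het). Libraries of the same number correlated at -0.07 to 0.12 in their deviations from the group means, and others at -0.11 to 0.11, so these ranges overlapped. Deviations sum to 0 within each group, so the values cannot exclude a weak pairing. The labels do not say whether the numbers pair libraries. At a median of 30 reads per member and library, no change below 0.84 on the log2 scale was called in the reported fit.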

Other observations

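The mRp genes are spread over all large chromosome arms, with 20 members on 3R, 15 on 3L, 12 on 2L, 11 on the X and 10 on 2R. In Ime4hom against control the median log2 fold change was 0.45 on 3R, 0.27 on 3L, 0.30 on 2L, 0.34 on the X and 0.64 on 2R. In Ime4het against control it was 0.26 on 3R, 0.10 on 3L, 0.23 on 2L, -0.08 on the X and 0.37 on 2R. Of the 11 X-linked members 4 were positive (36.4%, all genes 48.7%). Differences between arms were not tested.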
